A study of Mus musculus with 12 samples.

Results

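The sterol and fatty acid synthesis genes described here are 31 genes taken by name, 18 enzymes of cholesterol synthesis, 8 enzymes of fatty acid synthesis and desaturation, and 5 genes that control or serve the pathway. They are 31 of 19514 genes or unnamed transcripts tested on the arrays, and the names were matched to probes through the transcript accessions of the array annotation, with no threshold on a measured value in the choice. All 31 were measured, by 46 probes of which 45 were kept, and the probe used for each gene was well above background on all 12 arrays.

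The cultures were primary fibroblasts prepared from mouse embryos at E12.5 and grown in medium with serum, cells known as MEFs. The 4 groups of 3 arrays were wild type (WT) at early passage, Itpr2 knock-out (KO) at early passage, WT at late passage and KO at late passage. Early means 3 passages in culture and late means 5, and the design text of the series names 3 independent animals of each genotype. Itpr2 encodes a receptor for inositol trisphosphate through which calcium leaves the endoplasmic reticulum, and the labels do not name the allele used to remove it.

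Cholesterol is built from acetyl-CoA through mevalonate, isoprenoids and squalene to lanosterol, which a last series of enzymes trims and reduces to cholesterol. Fatty acids are built from the same acetyl-CoA by acetyl-CoA carboxylase and fatty acid synthase and are then elongated and desaturated. The membrane-bound transcription factors SREBP1 and SREBP2, encoded by Srebf1 and Srebf2, are held in the endoplasmic reticulum by Insig proteins and carried to the Golgi by Scap when sterols are low, and after cleavage they activate most genes of both branches. Promoters of sterol synthesis genes often carry a sterol response element together with a CCAAT box, the site of the factor NF-Y that acts with SREBP.

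The promoter windows below belong to the 5 sterol enzymes with a listed promoter that were lower in KO than in WT at late passage, to Hmgcs1, the member with a sterol response element in the searched letters, and to Acss2, a fatty acid branch gene that fell with passage. Each window is the 150 bases before the annotated start in RefSeq on assembly GRCm38.p6, written 5′ to 3′ on the strand of the gene. Capitals mark CCAAT or its reverse complement ATTGG, and in Hmgcs1 also the match to TCACNCCAC.
Msmo1, chr8:64733579-64733728, minus strand: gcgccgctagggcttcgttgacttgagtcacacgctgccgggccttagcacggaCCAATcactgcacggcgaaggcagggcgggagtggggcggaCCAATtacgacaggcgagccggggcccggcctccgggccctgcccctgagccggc
Nsdhl, chrX:72918371-72918520, plus strand: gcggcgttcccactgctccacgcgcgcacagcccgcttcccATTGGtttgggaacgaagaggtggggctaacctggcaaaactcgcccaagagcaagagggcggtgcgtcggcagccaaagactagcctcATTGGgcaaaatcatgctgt
Hsd17b7, chr1:169969206-169969355, minus strand: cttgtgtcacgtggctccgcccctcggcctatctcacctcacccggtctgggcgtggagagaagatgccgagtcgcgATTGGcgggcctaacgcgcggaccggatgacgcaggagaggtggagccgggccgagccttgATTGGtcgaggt
Tm7sf2, chr19:6067851-6068000, minus strand: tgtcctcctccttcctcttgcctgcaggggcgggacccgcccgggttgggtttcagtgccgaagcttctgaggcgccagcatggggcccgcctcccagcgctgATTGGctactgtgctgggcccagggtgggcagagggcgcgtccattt
Ebp, chrX:8193513-8193662, minus strand: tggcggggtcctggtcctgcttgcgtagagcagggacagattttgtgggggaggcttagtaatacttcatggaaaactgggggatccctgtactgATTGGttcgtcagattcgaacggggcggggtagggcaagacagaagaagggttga
Hmgcs1, chr13:119690201-119690350, plus strand: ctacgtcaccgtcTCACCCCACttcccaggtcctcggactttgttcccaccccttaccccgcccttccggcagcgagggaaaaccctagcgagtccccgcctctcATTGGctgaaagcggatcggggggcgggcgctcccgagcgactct
Acss2, chr2:155517893-155518042, plus strand: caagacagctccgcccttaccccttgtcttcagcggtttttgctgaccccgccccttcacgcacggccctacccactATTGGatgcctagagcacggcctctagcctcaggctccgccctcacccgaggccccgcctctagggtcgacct

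The RefSeq promoter table held 25 of the 31 members, and in the 250 bases before the start a CCAAT box on either strand was found for 14 of 15 sterol enzyme genes. It was found for 3 of 6 fatty acid enzyme genes, namely Acss2, Fasn and Me1, and for 3 of 4 regulators, namely Insig1, Srebf1 and Srebf2. It was not found for Acaca, Acly and Elovl6, which like Acss2 were called lower with passage in WT. Of the 11601 tested genes with a promoter in the table, 39.9% had such a match, and of all 32851 promoters 33.8% did. The sterol response element TCACNCCAC (reverse GTGGNGTGA) was found in 1 member, Hmgcs1, at 137 bases before the start, and in 1.05% of all promoters. These letters are 1 strict spelling of the element, and a match or its lack in this window says nothing on whether SREBP binds there. A gene with several starts counted as matched when any of its windows held the letters.

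Signals are given throughout as log2 values relative to the 75th percentile of the array, so that 0 is a bright spot by the standard of that array. They are levels of 1 probe and are not compared between genes. Differences are differences of group means on this log2 scale with the standard error (SE) of a limma fit to all 12 arrays, n = 3 per group. A difference was called at a Benjamini-Hochberg adjusted p under 0.05 over all 19514 genes or transcripts. For 1 gene alone, the smallest two-sided p that an exact permutation test over 3 and 3 arrays allows is 0.1.

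On each array 59.2% to 67.5% of the 39429 probes exceeded background clearly by the scanner software's call, and 0 were saturated. All 10 fibroblast markers were above background on all 12 arrays. The Itpr2 probe read 0.66 to 1.23 in WT early, 1.12 to 1.58 in KO early, 1.53 to 1.74 in WT late and 1.72 to 1.83 in KO late arrays. It was not lower in the arrays labelled KO, nothing in the labels places it inside or outside the deletion, and it therefore does not check the genotype. WT and KO below stand for the labelled genotype. Xist, which coats the silenced X chromosome of female cells, was detected on replicate 1 of WT early and of WT late, on KO late replicates 1 and 2, and on none of the KO early arrays, 4 arrays in all. Each replicate number corresponds to 1 slide that holds 1 array of every group, so differences can also be read within a slide.

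KO against WT at early passage showed no difference in this pathway that passed the test. Of the 31 members 0 were called by limma, and 0 reached an unadjusted p under 0.05, while 1168 of all 19514 genes did. The share of all genes tested that was called in either direction was 0.0359%. The largest differences were those of Dhcr7, which encodes the reductase of the final step to cholesterol, at -0.43 ± 0.28 (SE, n = 3 per group, adjusted p = 0.74), and Lss, lanosterol synthase, at -0.38 ± 0.19 (adjusted p = 0.74). For Fdps alone did all KO early arrays lie below all WT early arrays, 1 of 31 members, while 4.29% of all genes did so. The SE of the members' differences ran from 0.089 for Acly to 0.32 for Srebf2, so a small early difference was not detectable in the noisier members.

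KO against WT at late passage was the comparison in which the sterol enzymes stood lower in KO. Of the 31 members 7 were called lower in KO and 0 higher, against 4.38% of all genes called lower and 3.46% called higher. The 7 were the sterol enzymes Fdps, Tm7sf2, Msmo1, Nsdhl, Hsd17b7 and Ebp and the fatty acid desaturase Scd1. Of the 18 sterol enzymes 17 had a negative difference, with a median of -0.45, and of the 8 fatty acid enzymes 5 had, with a median of -0.20. The median over all genes was -0.01. The KO late arrays lay entirely below the WT late arrays for 16 of 31 members, while 20.3% of all genes did so.

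**Figure D1:**
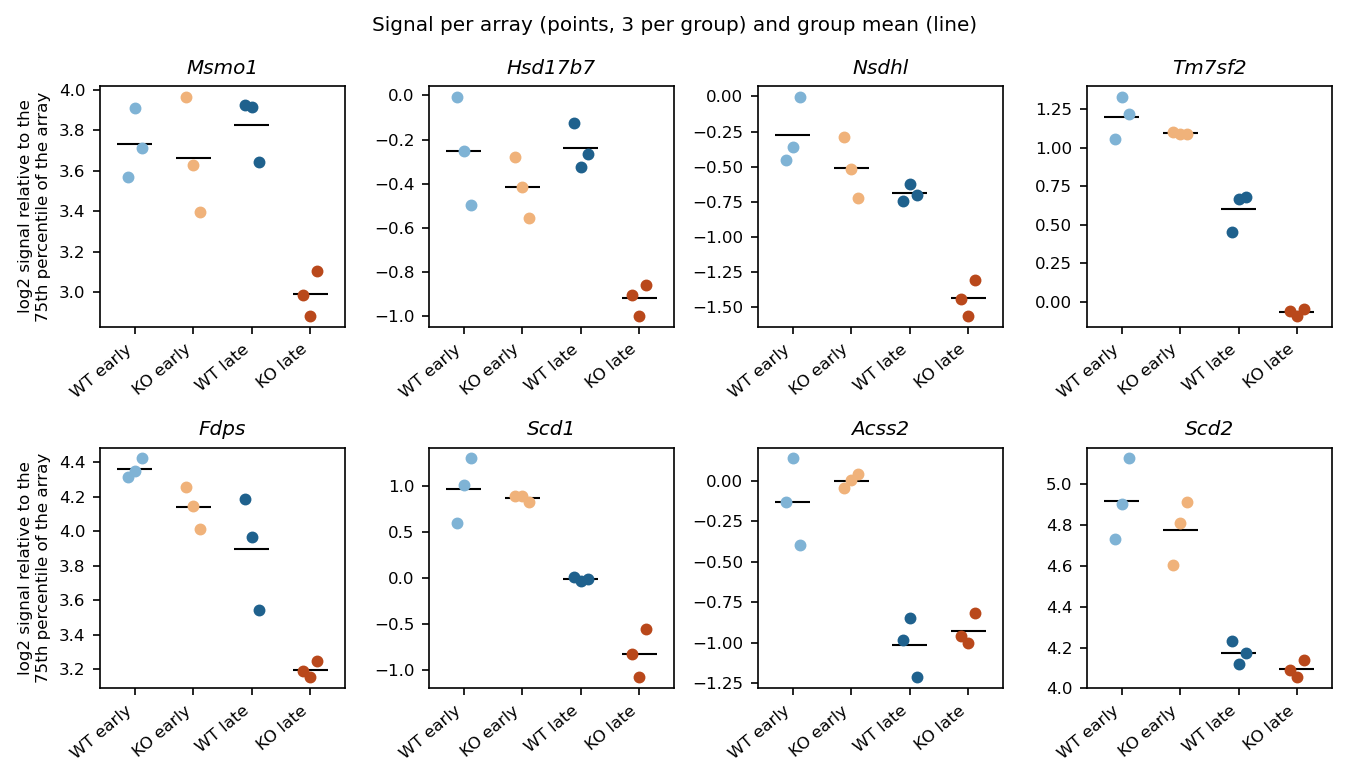
Log2 signal relative to the 75th percentile of the array (vertical axis) of 8 members in the 4 groups, 1 point per array and a line at the group mean. For Msmo1 and Hsd17b7 the KO late points lie below the 9 other arrays, while for Acss2 and Scd2 both late groups lie below both early groups.

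Msmo1, the methylsterol monooxygenase that starts removal of the C4 methyl groups of lanosterol-derived sterols, showed the largest difference. Its levels were 3.92, 3.92 and 3.64 in the WT late arrays and 2.98, 2.88 and 3.10 in the KO late arrays. The KO late arrays were the 3 lowest of all 12, since the WT early arrays read 3.57, 3.91 and 3.72 and the KO early arrays 3.97, 3.63 and 3.40. The late difference was -0.84 ± 0.15 (adjusted p = 0.013), 1.79-fold lower, and was negative on each slide.

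Nsdhl and Hsd17b7 encode the next enzymes of the same C4 demethylation, a sterol dehydrogenase and the 3-ketosteroid reductase. Nsdhl read -0.74, -0.62 and -0.70 in WT late and -1.45, -1.57 and -1.31 in KO late arrays, with no overlap, and the difference was -0.75 ± 0.14 (adjusted p = 0.015). Hsd17b7 read -0.12, -0.32 and -0.27 in WT late against -0.90, -1.0 and -0.86 in KO late arrays, a difference of -0.68 ± 0.13 (adjusted p = 0.015). The second probe of each gene gave -0.76 for Nsdhl and -0.65 for Hsd17b7. For Hsd17b7 the other 3 groups overlapped, between -0.55 and -0.01, so that the KO late arrays alone stood apart.

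Tm7sf2, a sterol C14 reductase that acts just after lanosterol demethylation, had the smallest SE of the called members. It read 0.45, 0.67 and 0.68 in WT late arrays and -0.06, -0.09 and -0.05 in KO late arrays. The difference was -0.67 ± 0.093 (adjusted p = 0.0045), and its other probe gave -0.74. In contrast to Msmo1, both late groups of Tm7sf2 lay below the early arrays, which read between 1.06 and 1.33 in WT and between 1.09 and 1.10 in KO.

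Fdps, farnesyl diphosphate synthase, makes the isoprenoid from which squalene, dolichol and prenyl groups are drawn. Its WT late arrays were uneven, at 4.19, 3.97 and 3.54, and its KO late arrays close, at 3.19, 3.15 and 3.25. The groups did not overlap, and the difference was -0.70 ± 0.14 (adjusted p = 0.020). Ebp, the sterol isomerase that shifts the double bond of the sterol ring, read 3.03, 2.89 and 2.86 in WT late and 2.53, 2.50 and 2.61 in KO late arrays, a difference of -0.38 ± 0.10 (adjusted p = 0.048). Ebp lies closest to the threshold of the 7, and with the replicate number as a block its adjusted p was 0.065.

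The remaining sterol enzymes did not pass the test at late passage. Idi1, isopentenyl diphosphate isomerase, had a difference of -0.69 ± 0.21 (adjusted p = 0.070), with WT late levels of 2.43, 2.48 and 1.87 against 1.57, 1.50 and 1.63. Sc5d, the sterol C5 desaturase, had -0.46 ± 0.15 (adjusted p = 0.095), Lss -0.46 ± 0.19 (adjusted p = 0.16), and Fdft1, squalene synthase, -0.46 ± 0.16 (adjusted p = 0.11). Sqle, squalene epoxidase, had -0.42 ± 0.14 (adjusted p = 0.095), and its groups and those of Idi1, Sc5d, Fdft1, Mvd and Mvk did not overlap. At the other end, Cyp51, lanosterol demethylase, had -0.12 ± 0.12, Hmgcs1, the synthase of the mevalonate precursor, -0.15 ± 0.12, Acat2, the acetoacetyl-CoA thiolase, -0.11 ± 0.21 and Dhcr7 0.02 ± 0.28, all with overlapping groups.

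By place in the pathway, the called sterol enzymes lay mostly after lanosterol. Of the 8 enzymes that act on lanosterol and later sterols (Cyp51, Tm7sf2, Msmo1, Nsdhl, Hsd17b7, Ebp, Sc5d and Dhcr7) 5 were called, and of the 10 that lead to lanosterol 1 was, namely Fdps. This division was made after the values were seen, and the difference between the shares was not tested. It also depends on the threshold. Of the uncalled enzymes that lead to lanosterol, Idi1, Fdft1, Lss, Mvd and Sqle had larger differences than the called Ebp. Acat2, Hmgcs1, Mvk and Pmvk had smaller ones. Idi1, Sqle and Lss were called when WT late replicate 3 was left out.

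WT late replicate 3 stood nearer to the KO late arrays than the other WT late arrays did in this pathway. It was the lowest of the 3 WT late arrays for 15 of 18 sterol enzymes, while over all genes tested it was the lowest for 42.9%. The mean of the 18 enzymes, each centred on its own mean over the 12 arrays, was 0.11, 0.14 and -0.20 in WT late arrays and -0.44, -0.44 and -0.39 in KO late arrays. The median KO minus WT difference of the sterol enzymes was -0.62 on slide 1, -0.56 on slide 2 and -0.22 on slide 3. Without WT late replicate 3, 8 members were called, with Idi1, Sqle and Lss added and Ebp and Scd1 lost.

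**Figure D2:**
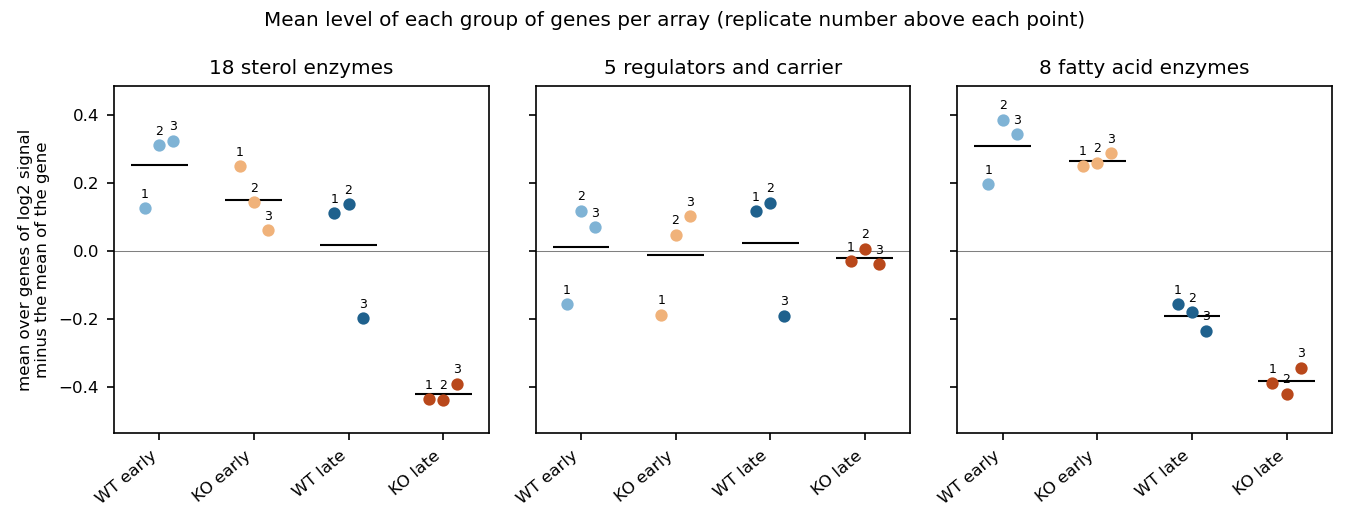
Mean over the genes of a group of the log2 signal minus the mean of each gene over 12 arrays (vertical axis), 1 point per array with its replicate number and a line at the group mean. The 18 sterol enzymes average -0.44, -0.44 and -0.39 in KO late arrays against 0.11, 0.14 and -0.20 in WT late arrays, while the 5 control and carrier genes stay within 0.2 of 0 in every array.

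In the fatty acid branch at late passage, Scd1 was the called gene. It encodes stearoyl-CoA desaturase 1, which places the double bond of oleate and palmitoleate. Its levels were 0.01, -0.03 and -0.02 in WT late arrays and -0.83, -1.08 and -0.56 in KO late arrays, and the difference was -0.81 ± 0.17 (adjusted p = 0.022), 1.76-fold lower. Scd2, the desaturase isoform of many non-hepatic tissues, had -0.08 ± 0.11 (adjusted p = 0.71), with overlapping groups between 4.05 and 4.23. Acly, the ATP citrate lyase that supplies cytosolic acetyl-CoA, had -0.32 ± 0.089 (adjusted p = 0.055), Fasn, fatty acid synthase, -0.32 ± 0.099 (adjusted p = 0.075), and Me1, the malic enzyme that supplies NADPH, -0.39 ± 0.15 (adjusted p = 0.14), each with no overlap between the groups. Acaca, acetyl-CoA carboxylase 1, Elovl6, the elongase of palmitate, and Acss2, the cytosolic acetyl-CoA synthetase, had positive differences of 0.14 ± 0.093, 0.15 ± 0.12 and 0.09 ± 0.14, none of them called. For Acaca the groups did not overlap, narrowly, at 1.889 to 1.988 in WT late and 1.990 to 2.114 in KO late arrays. Its kept probes did not agree in sign in this comparison.

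The control and carrier genes among the members did not pass the test in any of the 5 comparisons. This does not hold for every gene that controls SREBP. Insig2, counted below with the related genes, was called lower in KO at late passage, at -0.45 ± 0.10 (adjusted p = 0.027 by limma). At late passage Srebf1 differed between KO and WT by 0.14 ± 0.15, Srebf2 by 0.20 ± 0.32, Scap by -0.01 ± 0.15 and Insig1 by -0.24 ± 0.20, with adjusted p from 0.52 to 0.99. Stard4, a carrier of cholesterol between membranes, had -0.31 ± 0.15 (adjusted p = 0.21). These are transcript levels, and the cleaved, active form of SREBP was not measured. For Srebf2 the probes did not point the same way, since a second probe had a difference of -1.08 (adjusted p = 0.19 over all probes).

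The late calls rest on few arrays. Without KO late replicate 1, and likewise without KO late replicate 2, 1 member remained called, Tm7sf2 both times. Both of these arrays carried Xist, and with both left out 0 members were called and 1 of 19514 genes was. The KO late arm is then a single array, replicate 3, assumed to vary like the other groups. Against the mean of the WT late arrays it gave 27 of 31 negative members and a sterol median of -0.44, and against the WT late array of its own slide a sterol median of -0.22. With the Xist signal as a covariate 6 members were called, all but Ebp. Nsdhl and Ebp lie on the X chromosome, and the other 5 called members do not.

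Markers of other cell types also differed between the late groups. Macrophage markers were above background on all 12 arrays for 12 of 12 genes, and their summed signal, relative to the 75th percentile, was 70.7 to 117 in WT late and 37.1 to 65.8 in KO late arrays, with 2 of 12 called lower. The median macrophage difference was -0.48 on slide 1, -0.78 on slide 2 and -2.06 on slide 3, where the sterol enzymes had -0.62, -0.56 and -0.22. Of the 8 adipocyte markers 4 were above background on all 12 arrays and Plin1, Cidec and Cfd on none, with a summed signal of 3.68 to 5.64 in WT late and 3.47 to 3.93 in KO late arrays. Of the 4 adipocyte markers tested 1 was called higher and 1 lower. The sums for epithelial markers were 1.40 to 1.78 and 0.391 to 0.44, with 1 of 4 tested called lower. Cartilage markers, of which 6 of 7 were tested, had a median difference of 1.67, with 3 called higher, and sums of 25.8 to 31.1 in WT late and 25.0 to 40.9 in KO late arrays. Skeletal muscle markers, of which 3 of 7 were tested, had a median of -1.43, with 1 called lower, sums of 10.0 to 15.5 and 7.49 to 8.87, and Myod1 and Ckm above background on no array. Of the 10 fibroblast markers 2 were called higher and 2 lower. Endothelial markers, of which 3 of 6 were tested, had a median of -0.11 and 0 calls. The part of these cells in the pathway's differences was not tested, and in such bulk RNA fewer cells of a type and less RNA per cell cannot be told apart.

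Late against early passage in WT asked how the pathway changes as WT fibroblasts are passaged, and most fatty acid enzymes fell. Of the 31 members 9 fell and 0 rose, against 4.37% of all genes called lower and 6.21% called higher. The fallen genes were 6 of 8 fatty acid enzymes, namely Scd1, Scd2, Acss2, Elovl6, Acaca and Acly, and 3 of 18 sterol enzymes, namely Tm7sf2, Pmvk and Mvk. The medians were -0.42 for fatty acid enzymes and -0.21 for sterol enzymes, and the difference between the branches was not tested. For 12 of 31 members the WT late arrays lay entirely below the WT early arrays, while 13.8% of all genes did so.

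Scd1 read 0.60, 1.02 and 1.30 in WT early arrays and close to 0 in all WT late arrays, a difference of -0.99 ± 0.17 (adjusted p = 0.0083), 1.98-fold lower. Acss2 read -0.13, 0.14 and -0.39 in WT early and -0.98, -0.85 and -1.21 in WT late arrays, with -0.88 ± 0.14 (adjusted p = 0.0060). Scd2 read 4.73, 4.90 and 5.13 in WT early and 4.23, 4.12 and 4.17 in WT late arrays, with -0.75 ± 0.11 (adjusted p = 0.0052). The groups did not overlap in any of these genes, and each fell on all 3 slides. Elovl6, at -0.45 ± 0.12 (adjusted p = 0.041), Acaca, at -0.38 ± 0.093 (adjusted p = 0.030), and Acly, at -0.36 ± 0.089 (adjusted p = 0.033), fell by less. Both other Acaca probes were near 0, at -0.04 and -0.01, so that call rests on 1 of 3 probes.

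In the sterol branch of WT cells, Tm7sf2 fell by 0.60 ± 0.093 on the log2 scale (adjusted p = 0.0055). Pmvk and Mvk, the kinases that phosphorylate mevalonate, had -0.52 ± 0.12 (adjusted p = 0.022) and -0.38 ± 0.097 (adjusted p = 0.035). Mvk read 3.18, 3.48 and 3.33 in WT early and 2.90, 3.09 and 2.85 in WT late arrays. Of the other sterol enzymes that were lower in KO at late passage, Fdps had -0.46 ± 0.14 (adjusted p = 0.066) and Nsdhl -0.42 ± 0.14 (adjusted p = 0.089) with passage in WT, both without overlap of the groups. Msmo1 had 0.10 ± 0.15 (adjusted p = 0.71), Hsd17b7 0.01 ± 0.13 (adjusted p = 0.96) and Ebp -0.23 ± 0.10 (adjusted p = 0.16), with overlapping groups. The sterol median was -0.04 on slide 1, -0.10 on slide 2 and -0.51 on slide 3, the slide of WT late replicate 3, whereas the fatty acid median was -0.28, -0.52 and -0.53. Stard4 had the largest positive difference of the members, 0.51 ± 0.15 (adjusted p = 0.051), and passed with the replicate block (adjusted p = 0.046).

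Markers of other cell types moved with passage in WT as well. Of the 12 macrophage markers 10 had a positive difference, with a median of 0.94 and 1 called higher. Skeletal muscle markers had a median of -1.91 with 2 of 3 called lower, and cartilage markers a median of -0.92 with 2 of 6 called lower. Of the adipocyte markers 0 of 4 were called, at a median of 0.15, and of the fibroblast markers 1 of 10 was called lower. Their part in the pathway's differences was not tested.

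In WT the calls also moved with the arrays used. With only the 6 WT arrays in the fit 1 member was called, Scd2, and adjusted p was 0.053 for Scd1, 0.060 for Acss2 and 0.068 for Tm7sf2. Leaving out WT early replicate 2, KO early replicate 2 or KO late replicate 1 gave 5 calls each. Scd1, Scd2, Acss2 and Tm7sf2 kept their calls whichever single array was left out.

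Late against early passage in KO gave the widest change, in which both branches fell. Of the 31 members 14 fell and 0 rose, against 9% of all genes called lower and 9.95% called higher. They were 10 of 18 sterol enzymes and 4 of 8 fatty acid enzymes. The median was -0.58 for the sterol enzymes, all 18 of which were negative, and -0.55 for the fatty acid enzymes, all 8 of which were. These signs are those of the probe used for each gene. The kept probes of Hmgcs1, Fdft1 and Acaca did not agree in sign in this comparison. The median over all genes was -0.05, and the KO late arrays lay entirely below the KO early arrays for 25 of 31 members and for 29.3% of all genes.

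Scd1 had the largest change, from 0.89, 0.89 and 0.83 in KO early to -0.83, -1.08 and -0.56 in KO late arrays. The difference was -1.70 ± 0.17 (adjusted p = 0.00043), 3.24-fold lower. Tm7sf2 followed, from 1.10, 1.09 and 1.09 to -0.06, -0.09 and -0.05, with -1.16 ± 0.093 (adjusted p = 0.00016), 2.24-fold lower. For both genes the KO late arrays were the 3 lowest of all 12.

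Among the enzymes that lead to lanosterol, Fdps fell by 0.94 ± 0.14 (adjusted p = 0.0026), Pmvk by 0.79 ± 0.12 (adjusted p = 0.0025) and Mvk by 0.68 ± 0.097 (adjusted p = 0.0020). Idi1 fell by 0.77 ± 0.21 (adjusted p = 0.030) and Mvd, mevalonate diphosphate decarboxylase, by 0.54 ± 0.16 (adjusted p = 0.043). Fdps went from 4.26, 4.15 and 4.02 to 3.19, 3.15 and 3.25, without overlap. Hmgcs1, with -0.19 ± 0.12 (adjusted p = 0.27), read 3.69 to 3.75 in KO early and 3.48 to 3.58 in KO late arrays, without overlap. Its probes did not agree in sign.

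Among the enzymes after lanosterol, Nsdhl fell by 0.93 ± 0.14 (adjusted p = 0.0026), Msmo1 by 0.68 ± 0.15 (adjusted p = 0.014), Ebp by 0.67 ± 0.10 (adjusted p = 0.0026) and Hsd17b7 by 0.51 ± 0.13 (adjusted p = 0.021). For Msmo1 the size of the fall differed between slides, at -0.98, -0.75 and -0.29, as it did for Nsdhl, at -1.16, -1.05 and -0.59. Acss2 fell by 0.93 ± 0.14 (adjusted p = 0.0025), Scd2 by 0.68 ± 0.11 (adjusted p = 0.0039) and Acly by 0.63 ± 0.089 (adjusted p = 0.0020). The differences of Acss2 and Scd2 lay close to those in WT, at -0.88 and -0.75. Both passage comparisons use separate arrays, but each shares its late arrays with the late genotype comparison.

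With KO late replicates 1 and 2 both left out, the late arm is 1 array and the spread comes from the other groups. In that fit 2 members were called, Tm7sf2 and Scd1, and the sterol median was -0.54. The KO early arrays carried no Xist, so passage and the presence of Xist-positive cells cannot be told apart on those 2 slides. Same-numbered KO arrays may thus come from different animals, and the comparison may not follow the same cultures through passage. On slide 3, where neither KO array carried it, the sterol median was -0.43 and Scd1 had -1.39 and Tm7sf2 -1.14.

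Marker lists moved with passage in KO too. Skeletal muscle markers had a median of -3.94 with 2 of 3 called lower, epithelial markers a median of -0.81 with 2 of 4 called lower, and cartilage markers a median of 0.89 with 2 of 6 called higher. Of the adipocyte markers 0 of 4 were called, at a median of -0.45. Of the fibroblast markers 1 was called higher and 2 lower, and of the macrophage markers 0 were called, at a median of -0.14. Their part in the pathway's differences was not tested.

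**Figure D3:**
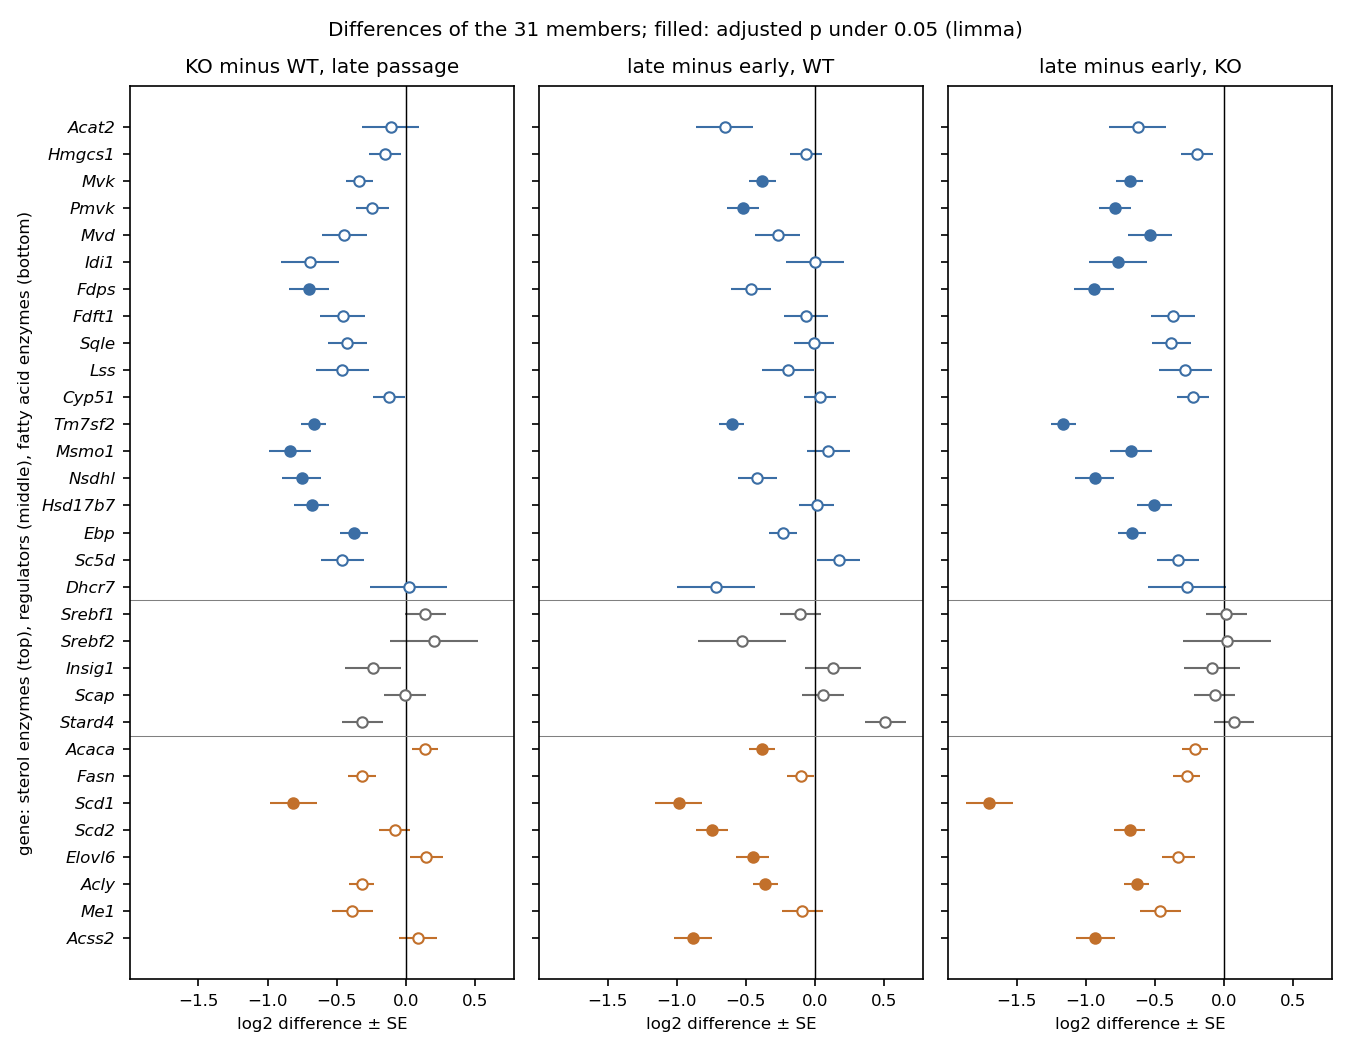
Log2 differences ± SE (horizontal axes) of the 31 members in the comparisons named above each panel, n = 3 arrays per group, with filled points at an adjusted p under 0.05 by limma. KO against WT at early passage is not drawn, and all filled points lie left of 0.

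The difference between the passage responses of KO and WT was tested as an interaction, and 0 of 31 members passed, against 0.0871% of all genes called in either direction. By limma 9 members had an unadjusted p under 0.05, as did 2716 of all 19514 genes. The lowest adjusted p was that of Tm7sf2, at -0.56 ± 0.13 (adjusted p = 0.14), followed by Msmo1, at -0.77 ± 0.22 (adjusted p = 0.19). Tm7sf2 was even across slides, at -0.56, -0.52 and -0.60, as was Hsd17b7, at -0.51, -0.52 and -0.53 with an adjusted p of 0.27. Msmo1 was not, at -1.34, -0.76 and -0.22. That more sterol enzymes were called with passage in KO than in WT is thus not shown to be a difference between the genotypes by this test.

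**Figure D4:**
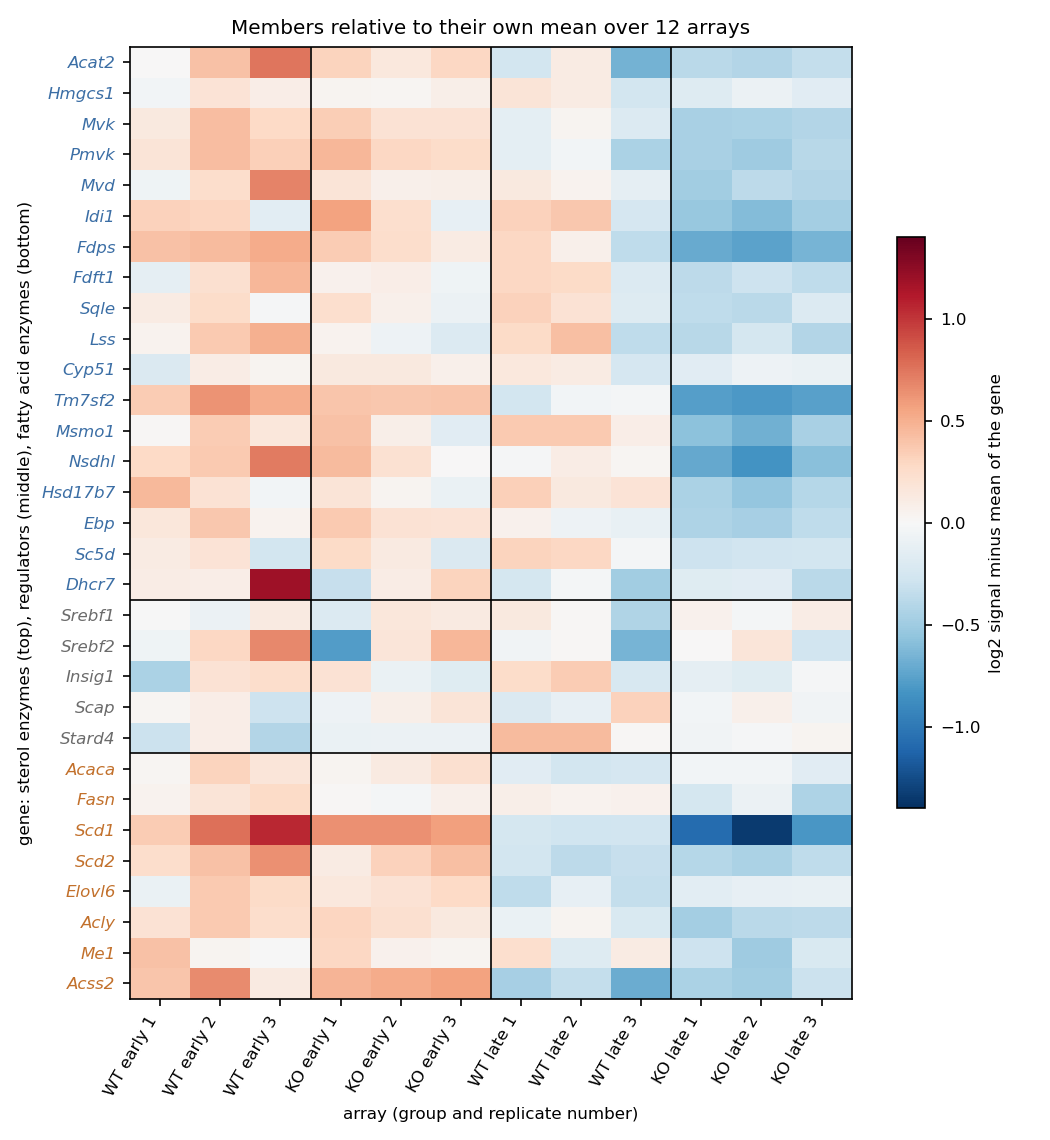
Log2 signal of each member minus its mean over the 12 arrays (colour), genes in rows by group of genes and arrays in columns by group and replicate number. The 3 KO late columns are low for most sterol enzymes and for Scd1, Acly and Acss2, and the column of WT late replicate 3 is lower than its 2 neighbours within the WT late group in most sterol rows.

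Related genes outside the 31 gave a mixed picture. Of 37 listed genes that act beside the pathway, in SREBP processing, fatty acid supply, glycerolipid synthesis, sterol efflux or sterol storage, 36 were measured. At early passage 0 differed between KO and WT, with 1 at an unadjusted p under 0.05, as were 1168 of all 19514 genes. At late passage 3 were called higher and 5 lower in KO, against 3.46% of all genes called higher and 4.38% called lower. The median over the 36 was -0.08. None of these 8 calls held in every fit that left out 1 array, and Gpam, Insig2 and Lipa each lost theirs in 5 of 12 such fits.

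Pgd, the phosphogluconate dehydrogenase that supplies NADPH, read 2.77, 2.60 and 2.65 in WT late and 2.06, 2.03 and 1.96 in KO late arrays, a difference of -0.66 ± 0.12 (adjusted p = 0.012). Lipa, the lysosomal acid lipase that frees cholesterol from its esters, was lower in KO by 0.88 ± 0.19 (adjusted p = 0.024). Insig2, which like Insig1 retains SREBP in the endoplasmic reticulum, was lower in KO by 0.45 ± 0.10 (adjusted p = 0.027). Gpam, the first acyltransferase of glycerolipid synthesis, was higher in KO by 0.45 ± 0.09 (adjusted p = 0.018). Its difference ran from 0.053 to 0.58 over the alternatives listed under the processing, and it was not called after normexp. Vldlr, a lipoprotein receptor, was higher in KO by 0.56 ± 0.099 (adjusted p = 0.012). It read 0.95, 1.18 and 1.13 in WT late and 1.65, 1.77 and 1.52 in KO late arrays. Both late means, 1.09 in WT and 1.65 in KO, lay below the early means, 1.88 in WT and 1.93 in KO. For these 5 genes the late groups did not overlap.

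With passage in WT 1 of the 36 rose and 3 fell, against 6.21% of all genes called higher and 4.37% called lower. Vldlr fell by 0.80 ± 0.099 (adjusted p = 0.0021), from 1.97, 1.92 and 1.76 in WT early arrays. Elovl5, an elongase of polyunsaturated fatty acids, fell by 0.61 ± 0.079 (adjusted p = 0.0026) and Mid1ip1, an activator of acetyl-CoA carboxylase, by 0.40 ± 0.078 (adjusted p = 0.013). Ch25h, the cholesterol 25-hydroxylase, rose by 1.12 ± 0.30 (adjusted p = 0.041), unevenly over the slides at 0.27, 1.25 and 1.84. The macrophage markers had slide medians of -0.41, 1.28 and 1.89 in this comparison, and their part in the Ch25h difference was not tested. Its call was lost in 9 of 12 fits that left out 1 array, and the 3 other calls held in all 12.

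With passage in KO 3 of the 36 rose and 4 fell, near the 9.95% of all genes called higher and 9% called lower. Among these calls that of Mid1ip1 alone held whichever single array was left out. Mid1ip1 fell by 0.60 ± 0.078 (adjusted p = 0.0014) and Pgd by 0.41 ± 0.12 (adjusted p = 0.034). Gpam rose by 0.39 ± 0.09 (adjusted p = 0.015), as did Dgat2, the enzyme that completes triglycerides, by 0.45 ± 0.11 (adjusted p = 0.020), and Acsl1, an acyl-CoA synthetase, by 0.36 ± 0.10 (adjusted p = 0.033). The Gpam difference ran from 0.033 to 0.42 over the alternatives, and it was not called after normexp. The passage responses of KO and WT differed in 0 of the 36 by limma. An unadjusted p under 0.05 was reached by 9 of them and by 2716 of all 19514 genes.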

How the data were processed

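Per the file headers, the scanner files give spot intensity with the background subtracted by Agilent Feature Extraction 11.5.1.1, while the submitters' processing notes name version 10.7.3.1. The deposited value table holds log2 values that, from a comparison with the scanner values (r of 0.995 to 0.998), are relative to each array's 75th percentile and centred per probe. Its column medians lay between -0.043 and 0.023, and the authors' probe filter was not stated in the files.

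Outlier spots were left out, repeated spots averaged, and log2 intensity was taken minus the 75th percentile of the array. A probe was kept when some group had it well above background on each of its 3 arrays (24368 probes), and the brightest kept probe stood for a gene. One limma 3.58.1 model (R 4.3.3) with 4 group means was fitted to 12 arrays, with 8 residual degrees of freedom. The p-values measure the spread between cultures. All 31 members may be named, and of the related genes up to 5 called per comparison by smallest p.

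The members and lists were chosen with earlier results of these data known. The limma fit was tested on simulated data with a known difference in the KO late arrays, for KO against WT at late passage. The other steps were not tested in this way. Same-numbered arrays correlated positively in all 3 pairs for WT early and WT late (0.28, 0.24 and 0.14). They did so more weakly or about equally for WT early and KO early (0.0588, 0.0555 and 0.156), and each number is 1 slide. The reported fit is unpaired, and the block was applied over all 12 arrays. Alternatives were quantile scaling, normexp background correction (on median spot signal, offset 50), the deposited table, other filters, the mean of probes, a replicate block, only the groups compared, array weights, Xist as covariate, and arrays left out. Promoters came from RefSeq tables on GRCm38.p6 and liver samples were not analysed here.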

Additional observations from a re-analysis of the deposited data

How the results depend on the processing

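Of the calls among members, 1 of 7 at late passage, 4 of 9 with passage in WT and 10 of 14 with passage in KO held whichever single array was left out, and no called member changed direction in its comparison under any alternative. Members that were not called did change sign, since the number of negative members ran from 24 to 28 at late passage, 16 to 25 at early passage and 19 to 26 with passage in WT. Leaving out 1 array gave 0 called members for KO against WT at early passage, 1 to 9 at late passage, 5 to 10 with passage in WT, 10 to 17 with passage in KO and 0 for the interaction. Without KO late replicate 1 or 2 the late count was 1. In WT it was 5 without WT early replicate 2, KO early replicate 2 or KO late replicate 1. With KO late replicates 1 and 2, which carry Xist, both left out, the counts were 0 at late passage, 4 in WT and 2 in KO. With no filter on dim probes, where 31978 genes were tested, they were 4 at late passage and 4 in WT. With limma array weights they were 18 at late passage, 26 in KO and 1 for the interaction (Tm7sf2). With only the WT groups in the fit the count was 1. With the replicate block the counts were 0, 8, 10, 14 and 0 in the order above; at late passage Ebp was lost and Idi1 (adjusted p = 0.037) and Sc5d (adjusted p = 0.046) were called, in WT Stard4 was called higher, and in KO Mvd was lost and Me1 called.

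Quantile scaling, normexp, the deposited table, the stricter filter, the mean of probes and the Xist covariate kept every count within 1.5 times the one reported. After normexp, Scd1 at late passage, Elovl6 in WT and Idi1 and Mvd in KO were not called, nor was Mvd in KO with quantile scaling or the Xist covariate, nor were Acaca, Pmvk and Acly in WT with the mean of the probes. Over all genes, the late genotype count was 1530 in the reported fit, 615 with no filter, 4215 with array weights and 1 without both Xist arrays; the cause was not tested. The 3 arrays per group limit the precision, while all members were above background on every array.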

Other observations

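The median SD of the 31 members at early passage was 0.23 in WT and 0.108 in KO, beside 0.215 and 0.141 over all genes tested. At late passage it was 0.212 in WT and 0.0644 in KO, beside 0.16 and 0.0839. Dhcr7 had 1 array apart, WT early replicate 3 at -0.40, while its 11 other arrays lay between -2.09 and -1.28. Insig1, an SREBP target as well as a regulator, lay lowest at -2.71 in WT early replicate 1, the array with Xist in that group, and between -2.49 and -1.91 on the others. WT early replicate 1 was the lowest WT early array for 12 of 18 sterol enzymes and for 36.4% of all genes tested. KO early replicate 3 was the lowest KO early array for 13 of 18 and for 38.6% of all genes tested.

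Of the 12 members with several kept probes, the probes had the same sign for 9 in KO against WT at early passage, for 10 at late passage, for 8 with passage in WT and for 7 with passage in KO. All 3, 5 and 6 called members with several probes in the last 3 of these comparisons had probes of 1 sign. The E-box CACGTG, which reads the same on both strands, was found in the promoter windows of Dhcr7, Hsd17b7, Insig1, Sc5d and Scap, 5 of 25 members, in 9.41% of the tested genes with a promoter and in 6.02% of all promoters.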
